A study of Homo sapiens with 23 samples.

Results

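The genes described here are 10 genes of the activator protein 1 (AP-1) and immediate early response, followed in ovarian cancer lines made resistant to prexasertib, an inhibitor of the checkpoint kinase CHK1. They are the Jun-side subunits JUN and JUNB, the Fos-side subunits FOS, FOSB, FOSL1 and FOSL2, the related subunit ATF3, the zinc finger factor EGR1, and the feedback inhibitors DUSP6 and SPRY4. They were chosen by name and found in the deposited table by NCBI Gene ID, and all 10 were listed among its 21658 genes. RNA-seq had been carried out on 23 libraries from 4 established lines, Kuramochi, OVSAHO, OV-90 and EFO-21, each as its parental form and as a resistant form raised by long-term exposure to rising drug concentrations. Each of the 8 groups had 3 libraries, labelled as biological replicates, except parental OV-90, which had 2. Whether a resistant form was a clone or a pool of cells, and whether drug was present when RNA was taken, is not given in the sources used here.

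AP-1 is a dimer of leucine zipper proteins, usually one Jun and one Fos member, that binds short palindromic DNA elements and turns growth factor and stress signals into transcription. Immediate early genes such as FOS and EGR1 are induced within minutes through ERK, SRF and the ternary complex factors, without the need for new protein, and JUN and ATF3 also respond to the stress kinases JNK and p38. DUSP6, a phosphatase that acts on ERK, and SPRY4, a Sprouty protein that dampens receptor signalling, are switched on by ERK activity and hold it back, so both are widely read as outputs of that pathway. FOSL1 and FOSL2 lack the strong activation domain of FOS and accumulate under sustained signalling, and ATF3 can act as a repressor of its targets.

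On the GRCh37 build the genes lie on 7 chromosomes, all annotated as protein coding. JUN (chr1:59242517-59249720, minus strand) and JUNB (chr19:12902300-12904129, plus strand) have a single exon behind their value in the table, against between 3 and 16 exons for the others. FOS is at chr14:75745529-75748933, FOSB at chr19:45971253-45978437, FOSL2 at chr2:28615315-28640184, ATF3 at chr1:212738676-212794119 and EGR1 at chr5:137801168-137804992, all on the plus strand. FOSL1 is at chr11:65659520-65668044, DUSP6 at chr12:89741012-89746278 and SPRY4 at chr5:141689992-141706020, all on the minus strand.

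To show how the start regions of genes that moved together or apart are written, promoters were read from a RefSeq table of assembly GRCh38.p14, which runs from 250 bases before to 50 bases after each start. Of the 10 genes 9 had an entry, and FOSL1 had none. The 250 bases before the start are printed for EGR1 and ATF3, which passed the test in 3 lines each, for JUN, and for FOS, which passed in none, with motif matches in capitals.
EGR1, chr5:138465229-138465478 (+): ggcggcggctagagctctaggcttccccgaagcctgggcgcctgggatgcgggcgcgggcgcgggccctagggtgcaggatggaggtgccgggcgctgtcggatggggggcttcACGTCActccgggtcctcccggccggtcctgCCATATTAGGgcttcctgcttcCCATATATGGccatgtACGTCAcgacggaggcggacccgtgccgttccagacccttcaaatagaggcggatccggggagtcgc
JUN, chr1:58784048-58784297 (-): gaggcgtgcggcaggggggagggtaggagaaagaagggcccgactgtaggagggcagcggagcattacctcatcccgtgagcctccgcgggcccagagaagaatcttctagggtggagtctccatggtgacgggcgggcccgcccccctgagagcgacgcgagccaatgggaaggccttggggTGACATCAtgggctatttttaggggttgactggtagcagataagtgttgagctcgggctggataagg
ATF3, chr1:212565157-212565406 (+): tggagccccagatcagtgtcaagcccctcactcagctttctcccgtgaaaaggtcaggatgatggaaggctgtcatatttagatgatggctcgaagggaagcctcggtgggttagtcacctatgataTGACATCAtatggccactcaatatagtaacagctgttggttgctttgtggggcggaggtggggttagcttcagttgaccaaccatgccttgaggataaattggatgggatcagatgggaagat
FOS, chr14:75278578-75278827 (+): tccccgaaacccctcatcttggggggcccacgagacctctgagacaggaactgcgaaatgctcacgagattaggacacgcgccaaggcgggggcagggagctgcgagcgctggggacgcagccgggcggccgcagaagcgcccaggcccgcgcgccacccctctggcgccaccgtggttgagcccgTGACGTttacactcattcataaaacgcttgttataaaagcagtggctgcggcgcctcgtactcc
The motifs searched on both strands were TGACTCA (the AP-1 element), TGACNTCA (the ATF/CRE-type element), TGACGT (part of the cyclic AMP element, which lies inside TGACNTCA where N is G), CCGGAAGT (an ETS site) and the CArG box bound by SRF. EGR1 held 2 CArG boxes, at -105 to -96 and -83 to -74 from the start, and 2 matches of TGACGT, read as ACGTCA on the printed strand. JUN held TGACNTCA at -67 to -60, ATF3 held it at -123 to -116 of its first start, and FOS held TGACGT at -64 to -59. Of the genes not printed, FOSL2 held TGACTCA at 5 to 11 past the start and TGACGT at -66 to -61, and FOSB held TGACGT at -60 to -55. Over the 35116 promoters of the table, a CArG box was found in 1.29%, TGACNTCA in 7.72%, TGACGT in 7.98%, TGACTCA in 4.95% and the ETS letters in 4.14%. The members with an entry had 10 windows in all, since ATF3 has a second start, and 4 of the windows held none of these letters. Sequence further than 250 bases before a start was not searched. A missing match, such as that of a CArG box in FOS, therefore covers the window only. The matches describe the sequence, and binding was not measured.

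Values are log2 expression levels as the authors normalized them, and a change is the resistant mean minus the parental mean of the same line. A gene passed the test at a limma adjusted p under 0.05, over all genes, together with a change of at least 2-fold, which is 1 on the log2 scale. Levels are not scaled to gene length, so they were compared between libraries and never between genes. Without read counts in the table the depth per library is unknown, and precision rests on the spread between libraries. In such bulk libraries fewer cells of a kind and less RNA per cell cannot be told apart. Within groups the lowest correlation of 2 libraries across genes was 0.952, in parental OV-90.

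Of the 10 genes, 4 rose and 1 fell in resistant Kuramochi, where 11.8% of all genes rose and 10.6% fell. In OVSAHO 3 rose and 0 fell, with 3.93% and 3.83% of all genes. In OV-90 4 rose and 1 fell, with 9.5% and 6.56%, and in EFO-21 2 rose and 0 fell, with 7.11% and 7.15%. The genes that rose were FOSL1, FOSL2, JUN and ATF3 in Kuramochi, ATF3, EGR1 and SPRY4 in OVSAHO, FOSB, EGR1, DUSP6 and SPRY4 in OV-90, and ATF3 and EGR1 in EFO-21. The single falls were DUSP6 in Kuramochi and FOSL1 in OV-90. The median change of the 10 was 0.49, 0.31, 0.74 and 0.54 in the same order of lines, and the median over all genes was -0.02, 0, -0.06 and 0.01. Of the 15 calls, 11 held with each library of the line left out in turn and 4 did not, namely FOSL2 in Kuramochi and FOSB, FOSL1 and SPRY4 in OV-90.

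**Figure D1:**
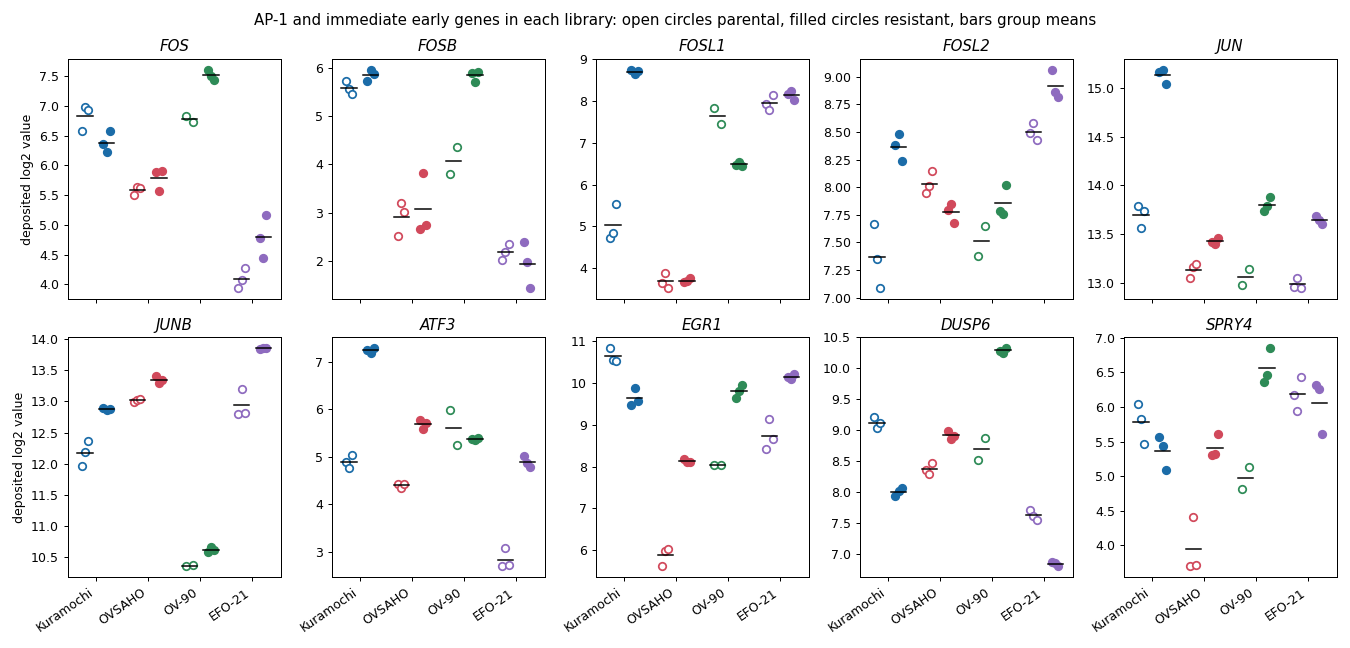
Log2 expression of the 10 genes in the 23 libraries, one panel per gene, with parental libraries as open circles, resistant libraries as filled circles and the group mean as a bar. The vertical axes differ between panels and do not start at 0. ATF3 in Kuramochi, OVSAHO and EFO-21 and EGR1 in OVSAHO, OV-90 and EFO-21 have every resistant library above every parental one, and FOSL1 in Kuramochi moves from between 4.72 and 5.54 to between 8.64 and 8.74.

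ATF3, a stress-induced member of the ATF family, was higher in 3 of the 4 resistant lines. In Kuramochi its level was 4.89, 4.77 and 5.03 in the parental libraries and 7.25, 7.18 and 7.29 in the resistant ones. All 3 resistant libraries lay far above the parental ones, a rise of 2.35 ± 0.11 (SE, n = 3 and 3), or 5.09-fold (adjusted p = 3.1e-05). In EFO-21, the line with the lowest parental level, it was 2.69, 3.08 and 2.72 and then 5.02, 4.86 and 4.78. That rise of 2.06 ± 0.17 (adjusted p = 0.000341) brought the mean to 4.89, close to the 4.90 of parental Kuramochi. In OVSAHO the level went from 4.43, 4.35 and 4.44 to 5.78, 5.58 and 5.70, a rise of 1.28 ± 0.11 or 2.43-fold (adjusted p = 0.000788) with no overlap. In OV-90 the parental libraries were at 5.98 and 5.24 and enclosed the resistant ones at 5.38, 5.36 and 5.40. The change there was -0.23, with a 95% interval from -0.90 to 0.44 (adjusted p = 0.496), and it was 0.14 without the parental library at 5.98. Among all genes, 6.72% changed by more than ATF3 in Kuramochi, 6.73% in OVSAHO and 3.73% in EFO-21.

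JUN and JUNB, the dimer partners of the Fos proteins, were higher in every resistant line, mostly by less than 2-fold. JUN in Kuramochi was at 13.79, 13.56 and 13.74 in parental and at 15.16, 15.19 and 15.04 in resistant libraries. This rise of 1.44 ± 0.09, or 2.71-fold (adjusted p = 7.66e-05), was the only one of JUN to reach 2-fold. In OVSAHO JUN was at 13.05, 13.16 and 13.19 against 13.42, 13.40 and 13.46 (change 0.30 ± 0.05, adjusted p = 0.00836). OV-90 had 12.98 and 13.13 against 13.74, 13.79 and 13.88 (0.74 ± 0.09, adjusted p = 0.0122), and EFO-21 had 12.96, 13.04 and 12.94 against 13.68, 13.65 and 13.60 (0.66 ± 0.05, adjusted p = 0.000153). The resistant libraries of JUN lay above the parental ones in all 4 lines without overlap. For JUNB, the change was 0.71 ± 0.11 in Kuramochi (adjusted p = 0.00235) and 0.33 ± 0.05 in OVSAHO (adjusted p = 0.00373). It was 0.26 ± 0.06 in OV-90 (adjusted p = 0.0303) and 0.92 ± 0.11 in EFO-21 (adjusted p = 0.0013). In EFO-21 JUNB was at 12.79, 13.20 and 12.82 in parental and at 13.85, 13.86 and 13.86 in resistant libraries, and without the parental library at 13.20 the change was 1.05 and passed the test. An adjusted p under 0.05 at any fold was reached by 46.9% of all genes in Kuramochi, 33.3% in OVSAHO, 36% in OV-90 and 48.4% in EFO-21, so such a p is common in these lines. Of the 10 genes 4 had it in every line, JUN and JUNB with higher values in each and EGR1 and DUSP6 with directions that differed between lines. In OV-90 the highest adjusted p with 1 library left out was 0.0712 for JUN and 0.115 for JUNB.

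FOSL1, which encodes the Fos-related protein FRA-1, changed most in Kuramochi and in opposite directions between lines. Its Kuramochi level was 4.72, 4.83 and 5.54 in parental and 8.74, 8.64 and 8.71 in resistant libraries. The rise of 3.66 ± 0.22, or 12.7-fold (adjusted p = 6.49e-05), was exceeded in size by 2.33% of all genes, and it took the line from place 6 to place 1 among the 8 groups. In OV-90 FOSL1 went from 7.82 and 7.45 to 6.46, 6.54 and 6.44, a fall with a change of -1.15 ± 0.14 (adjusted p = 0.013). The change was -0.97 without the parental library at 7.82, and without any single resistant library its adjusted p lay between 0.0635 and 0.0738. OVSAHO stayed low, at 3.65, 3.88 and 3.53 against 3.67, 3.69 and 3.76, with a change of 0.02 and an interval from -0.37 to 0.40. EFO-21 was high in both forms, at 7.93, 7.77 and 8.14 against 8.17, 8.24 and 8.01, with a change of 0.19 (adjusted p = 0.19). In both of these lines the groups overlapped.

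FOSL2, the gene of FRA-2, rose in Kuramochi from 7.67, 7.35 and 7.09 to 8.39, 8.48 and 8.24. The change of 1.0 ± 0.16 (adjusted p = 0.0028) lay at the 2-fold threshold, and it was between 0.86 and 0.99 when one of 4 libraries of the line was left out. In EFO-21 the level was 8.49, 8.58 and 8.43 against 9.06, 8.86 and 8.81 (0.41 ± 0.08, adjusted p = 0.00663). OVSAHO had the opposite sign, with 7.94, 8.01 and 8.14 against 7.79, 7.85 and 7.68 (-0.26, adjusted p = 0.0352), and OV-90 had 7.38 and 7.65 against 7.78, 7.76 and 8.02 (0.34, adjusted p = 0.106).

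FOS itself, the founding immediate early member, passed the test in no line. In Kuramochi its libraries were at 6.58, 6.99 and 6.92 in parental and 6.35, 6.22 and 6.57 in resistant cells, a change of -0.45 (adjusted p = 0.0506). OV-90 showed 6.83 and 6.72 against 7.61, 7.51 and 7.43 (0.74 ± 0.10, adjusted p = 0.0145), and EFO-21 showed 3.94, 4.07 and 4.27 against 4.77, 4.44 and 5.17 (0.70 ± 0.22, adjusted p = 0.0428). In these 3 lines the groups did not overlap, while in OVSAHO they did, at 5.50, 5.63 and 5.61 against 5.88, 5.56 and 5.91. FOSB, its close relative, rose in OV-90 alone among the 4 lines, from 3.80 and 4.36 to 5.91, 5.72 and 5.92. The size was 1.77 ± 0.23 or 3.41-fold (adjusted p = 0.0143), and the adjusted p was between 0.0656 and 0.0794 with any one resistant library left out. Elsewhere FOSB was at 5.74, 5.57 and 5.47 against 5.74, 5.97 and 5.89 in Kuramochi, with a change of 0.27. It was at 2.50, 3.20 and 3.02 against 2.67, 3.81 and 2.73 in OVSAHO, and at 2.01, 2.18 and 2.35 against 2.39, 1.96 and 1.43 in EFO-21, where 1 library lay below the level that marks the lowest 10% of its genes.

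EGR1, a factor that binds GC-rich elements and is a standard readout of ERK and SRF activity, rose in 3 resistant lines and had lower values, by just under 2-fold, in Kuramochi. The OVSAHO libraries went from 5.62, 5.99 and 6.04 to 8.17, 8.11 and 8.11. This rise of 2.25 ± 0.12, or 4.76-fold (adjusted p = 0.000169), was exceeded by 1.9% of all genes in that line. OV-90 went from 8.04 and 8.04 to 9.63, 9.80 and 9.94, a rise of 1.75 ± 0.11 or 3.36-fold (adjusted p = 0.00453). EFO-21 went from 8.41, 9.13 and 8.67 to 10.14, 10.09 and 10.21, a rise of 1.41 ± 0.18 or 2.66-fold (adjusted p = 0.00141). None of these 3 pairs overlapped, and the 3 calls held with each library left out. Kuramochi started highest, at 10.83, 10.54 and 10.52, and its resistant libraries were at 9.46, 9.86 and 9.57. The change of -1.0 ± 0.13 (adjusted p = 0.00142) was a factor of 1.99 and so fell just short of 2-fold, while leaving out one of 3 libraries gave values of -1.04 to -1.11 that passed.

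The ERK feedback inhibitors split the lines. DUSP6 in OV-90 was at 8.52 and 8.88 in parental and at 10.29, 10.26 and 10.33 in resistant libraries, a rise of 1.59 ± 0.12 or 3.01-fold (adjusted p = 0.00575). In Kuramochi DUSP6 went the other way, from 9.22, 9.03 and 9.12 to 7.95, 8.01 and 8.06, a change of -1.12 ± 0.07 (adjusted p = 7.77e-05). EFO-21 also had lower values, with 7.72, 7.62 and 7.56 against 6.87, 6.86 and 6.80 (-0.79 ± 0.06, adjusted p = 0.000181), under 2-fold. OVSAHO had higher values, with 8.36, 8.29 and 8.48 against 8.99, 8.86 and 8.91 (0.55 ± 0.06, adjusted p = 0.00179), also under 2-fold. The DUSP6 groups were apart in all 4 lines. SPRY4 rose in OVSAHO from 3.69, 4.41 and 3.72 to 5.31, 5.32 and 5.61, by 1.47 ± 0.23 or 2.77-fold (adjusted p = 0.00599). It rose in OV-90 from 4.81 and 5.13 to 6.37, 6.47 and 6.85, by 1.59 ± 0.21 or 3.01-fold (adjusted p = 0.0146), a call lost with any one resistant library left out (adjusted p between 0.0674 and 0.0712). The SPRY4 groups overlapped in Kuramochi, at 6.05, 5.83 and 5.47 against 5.56, 5.44 and 5.09, and in EFO-21, at 6.18, 5.95 and 6.44 against 6.32, 6.27 and 5.61.

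**Figure D2:**
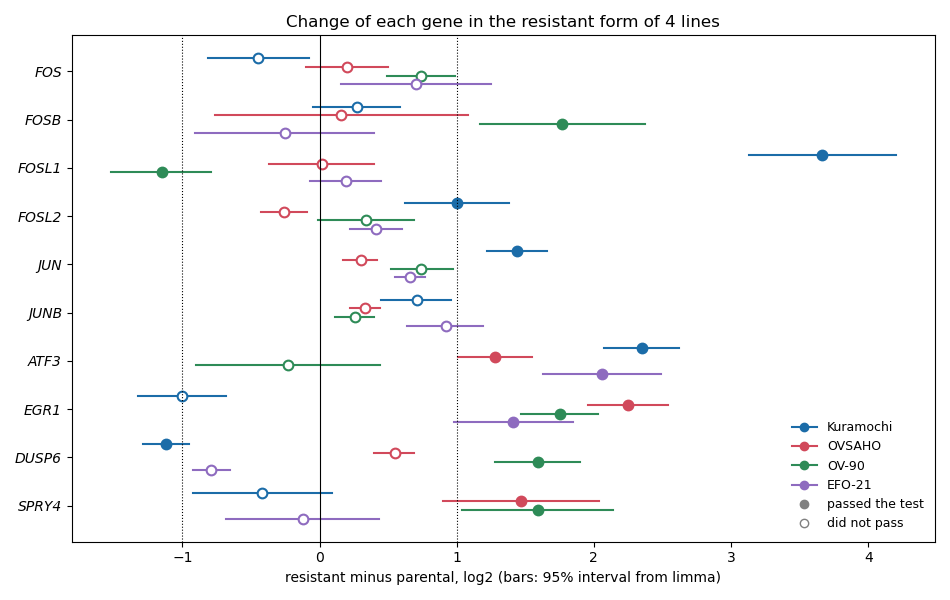
Resistant minus parental change of each gene on the log2 scale in the 4 lines, with the 95% interval of the limma fit of that line as a horizontal bar. Filled symbols passed the test and dotted lines mark 2-fold in either direction. EGR1 lies near 2 in OVSAHO and near -1 in Kuramochi, and FOSL1 lies at 3.66 in Kuramochi and at -1.15 in OV-90. The interval of OV-90, with 5 libraries, is the widest of the 4 lines for ATF3 and DUSP6 and the narrowest for FOS.

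Counted by groups that did not overlap, 9 of the 10 genes were apart in Kuramochi, 7 in OVSAHO, 9 in OV-90 and 7 in EFO-21. Over all genes this share was 59.2%, 48.4%, 69.1% and 59.7%. With the line as a block, the average change over the 4 lines passed the test for 2 of the 10, ATF3 at 1.45 ± 0.23 (interval 0.98 to 1.92, adjusted p = 9.34e-05) and EGR1 at 1.07 ± 0.29 (interval 0.47 to 1.67, adjusted p = 0.00736). Over all genes 2.9% passed as higher and 3.2% as lower. This fit takes the 23 libraries and not the 4 lines as its units, so its SE, interval and p do not measure the spread over lines. The ATF3 changes behind its average were 2.35 in Kuramochi, 1.28 in OVSAHO, 2.06 in EFO-21 and -0.23 in OV-90. The EGR1 average depended on which lines were in it, since it was 0.65 (adjusted p = 0.14) without OVSAHO, 0.95 (adjusted p = 0.066) without EFO-21 and 0.89 (adjusted p = 0.0618) without OV-90, and it was 0.97 without 1 parental OVSAHO library. JUN averaged 0.79 ± 0.10 (adjusted p = 1.29e-05) and JUNB 0.57 ± 0.08 (adjusted p = 2.21e-05), with smaller standard errors than the other 8 genes. DUSP6 averaged -0.02, the values of the lines with higher and with lower levels adding to near 0. FOSL1 averaged 0.78 with an interval from -0.05 to 1.61, and its sign turned to -0.25 without Kuramochi.

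Whether the lines differed was tested directly, as the difference between their changes in a fit of all 8 groups, with a difference of at least 1 on the log2 scale needed. Of the 60 comparisons of 10 genes over 6 pairs of lines, 28 passed. The number was 7 of 10 for Kuramochi against OVSAHO, where 24.3% of all genes passed, and 7 for Kuramochi against OV-90 (33.8% of all genes). It was 3 for Kuramochi against EFO-21 (26.6%), 5 for OV-90 against EFO-21 (24.9%), 4 for OVSAHO against OV-90 (17.1%) and 2 for OVSAHO against EFO-21 (15.7%). Pairs that share a line share its libraries, so these counts are not independent.

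The FOSL1 change in Kuramochi exceeded that in OVSAHO by 3.64 (adjusted p = 3.98e-10), that in EFO-21 by 3.47 (adjusted p = 5.85e-10) and that in OV-90 by 4.82 (adjusted p = 1.93e-11). For EGR1 the Kuramochi change was below the others, with differences of -3.25 from OVSAHO (adjusted p = 6.48e-10), -2.74 from OV-90 (adjusted p = 1.29e-08) and -2.41 from EFO-21 (adjusted p = 2.93e-08). DUSP6 differed by -2.71 between Kuramochi and OV-90 (adjusted p = 1.99e-12) and by 2.38 between OV-90 and EFO-21 (adjusted p = 5.18e-11). Its changes in Kuramochi and EFO-21 differed by -0.33 (adjusted p = 0.0184), under the size needed. The ATF3 change in Kuramochi exceeded that in OV-90 by 2.58 (adjusted p = 3.19e-08), and OV-90 differed from EFO-21 by -2.29 (adjusted p = 3.78e-07). Between Kuramochi and EFO-21 the ATF3 changes differed by 0.29, with an interval from -0.16 to 0.74. For JUNB 0 of the 6 pairs passed in this limma fit, since no difference reached 1 on the log2 scale, while 4 of them had an adjusted p under 0.05. The widest JUNB gap was -0.66 between OV-90 and EFO-21 (interval -0.95 to -0.37, adjusted p = 0.000744).

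The parental lines already differed in these genes. Of 60 comparisons between parental lines 34 passed the test, which is 7 of 10 for Kuramochi against EFO-21 (41.9% of all genes), 4 for Kuramochi against OV-90 (47.9%) and 5 for Kuramochi against OVSAHO (38.3%). It is 6 for OV-90 against EFO-21 (51% of all genes), 5 for OVSAHO against EFO-21 (44.9%) and 7 for OVSAHO against OV-90 (48.9%). The widest gap was in EGR1, which was 4.75 higher in parental Kuramochi than in parental OVSAHO (adjusted p = 3.16e-15). FOSL1 in parental OVSAHO was lower than in EFO-21, with a difference of -4.26 (adjusted p = 2.9e-14), and lower than in OV-90, with -3.95 (adjusted p = 4.67e-13). FOSB was 3.42 higher in Kuramochi than in EFO-21 (adjusted p = 2.68e-09), ATF3 was 2.78 higher in OV-90 than in EFO-21 (adjusted p = 3.14e-11), and JUNB was 2.65 higher in OVSAHO than in OV-90 (adjusted p = 3.21e-14). The parental libraries are the same ones that enter the resistant comparisons, so starting level and change are not independent measurements.

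Ordered over the 8 groups, EGR1 ran from parental Kuramochi at 10.63 ± 0.17 (SD, n = 3) through resistant EFO-21 at 10.15 ± 0.06, resistant OV-90 at 9.79 ± 0.16 and resistant Kuramochi at 9.63 ± 0.21 down to parental OVSAHO at 5.88 ± 0.23. Of these neighbours resistant OV-90 and resistant Kuramochi overlapped. ATF3 ran from resistant Kuramochi at 7.24 ± 0.05 to parental EFO-21 at 2.83 ± 0.21, with resistant OVSAHO, parental OV-90 and resistant OV-90 between 5.38 and 5.69 and not apart by order. DUSP6 was highest in resistant OV-90 at 10.29 ± 0.04 and lowest in resistant EFO-21 at 6.85 ± 0.04, and of its 7 neighbouring pairs 1 overlapped. For SPRY4, by contrast, neighbours overlapped throughout the first 7 groups, from resistant OV-90 at 6.56 ± 0.26 to parental OV-90 at 4.97 ± 0.22, and parental OVSAHO at 3.94 ± 0.40 stood alone. JUN was highest in resistant Kuramochi at 15.13 ± 0.08, above resistant OV-90 at 13.80 ± 0.07, and lowest in parental EFO-21 at 12.98 ± 0.06. JUNB in OV-90, at 10.37 ± 0.01 (n = 2) in parental and 10.62 ± 0.04 in resistant cells, stood below all other groups, which lay between 12.18 and 13.85.

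For each gene the 2 genes most like it over the 23 libraries were found by Pearson correlation among the 10829 genes with a mean above the median. The points are 8 groups of repeated libraries, so the values describe which groups were high and carry no test. DUSP6 was most like SPRY2, a second Sprouty gene, at 0.95, JUN was most like the carboxypeptidase gene CPA4 and the small GTPase gene RHOB, both at 0.95, and FOSB was like ZFP36, an immediate early RNA-binding protein, at 0.96. The nearest gene was TIGAR for FOS (0.97), TBRG1 for FOSL1 (0.96), UCK1 for ATF3 (0.91), AMOTL1 for EGR1 (0.95) and HSPA5 for SPRY4 (0.88). FOSL2 had LOC728024 (0.94) and CD68 (0.91), and JUNB had SDC3 at 0.97. SPRY2 fell in Kuramochi from 9.42 to 7.42 (adjusted p = 5.7e-05) and in EFO-21 from 7.73 to 5.86 (adjusted p = 3.19e-05), and rose in OV-90 from 9.0 to 10.14 (adjusted p = 0.0232). Among the 10 genes themselves the closest pair was FOS and FOSB at 0.85, followed by FOS and DUSP6 at 0.81, JUN and ATF3 at 0.79 and EGR1 and SPRY4 at 0.77, and the most opposed pair was FOSL2 and DUSP6 at -0.76.

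Related genes were described in hand-written lists, some of which share members. For the counts of every list below, the shares of all genes that rose and fell were 11.8% and 10.6% in Kuramochi. They were 3.93% and 3.83% in OVSAHO, 9.5% and 6.56% in OV-90, and 7.11% and 7.15% in EFO-21. A list count near these shares is no trait of the list. Among 23 measured other immediate early genes, 11 rose and 2 fell in Kuramochi (median change 0.55), 2 rose and 1 fell in OVSAHO (0.14), 6 rose and 0 fell in OV-90 (0.79), and 5 rose and 2 fell in EFO-21 (0.25). In Kuramochi KLF2, a Krüppel-like factor, rose from 3.18 to 7.03 (adjusted p = 3.83e-05) and EGR2 rose by 1.66 (adjusted p = 0.0172), while EGR3 fell by 1.38. In EFO-21 EGR3 rose from 2.38 to 5.75 (adjusted p = 0.00352), and EGR2 went from a parental mean of 0.80, at the bottom of the table, to 4.23. In OVSAHO EGR3 went from 0.70, also at the bottom, to 3.99, so that neither difference is a measured fold. PHLDA1, a target of ERK signalling, rose by 2.03 in Kuramochi and by 1.30 in OVSAHO and fell by 2.43 in EFO-21. In OV-90 the genes with the largest rises were BTG2 (2.10), KLF6 (1.85), MCL1 (1.65) and KLF4 (1.22), and the count of 6 became 0 or 1 when any resistant library was left out.

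Of 21 other outputs and feedback genes of ERK, 5 rose and 5 fell in Kuramochi (median change -0.34), 4 rose and 0 fell in OVSAHO (0.50), 5 rose and 0 fell in OV-90 (0.80), and 2 rose and 7 fell in EFO-21 (-0.25). SPRY1, another Sprouty gene, fell by 2.38 in Kuramochi (adjusted p = 4.65e-05) and by 1.64 in EFO-21, and ETV4, an ETS factor induced by ERK, fell by 2.75 in EFO-21 (adjusted p = 6.81e-05). The resistant EFO-21 libraries of ETV4, from 1.72 to 1.91, lay at or near the bottom. ETV1 fell by 2.31 in Kuramochi and rose by 1.09 in OVSAHO. DUSP4 went in OVSAHO from a parental mean of 0.36 to 3.63. That parental mean and the 0.70 of EGR3, which is also in this list, were at the bottom, so neither rise is a measured fold. In OV-90 the nuclear ERK phosphatase DUSP5 rose by 1.63 (adjusted p = 0.00456), SPRED2 by 1.46, CCND1 by 1.31 and SPRED1 by 1.30. The count of 5 in OV-90 was 1 without any one resistant library and 9 without the parental library numbered 3. Of the 20 genes of the ERK cascade itself and of the SRF partners, 1 passed in Kuramochi, 0 in OVSAHO, 3 in OV-90 and 1 in EFO-21, and the 3 in OV-90 became 0 without any one resistant library. Among them RPS6KA2, a kinase below ERK, rose by 1.56 in Kuramochi and fell in EFO-21 (change -1.77). Of the 19 genes of the JNK and p38 cascades 5 rose and 2 fell in Kuramochi, with GADD45B at 1.63, GADD45A at 1.32 and MAPK10, the gene of JNK3, at -3.56. In OVSAHO 1 of these rose, and in OV-90 and in EFO-21 1 rose and 1 fell in each, the 2 calls of OV-90 again becoming 0 without any one resistant library.

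**Figure D3:**
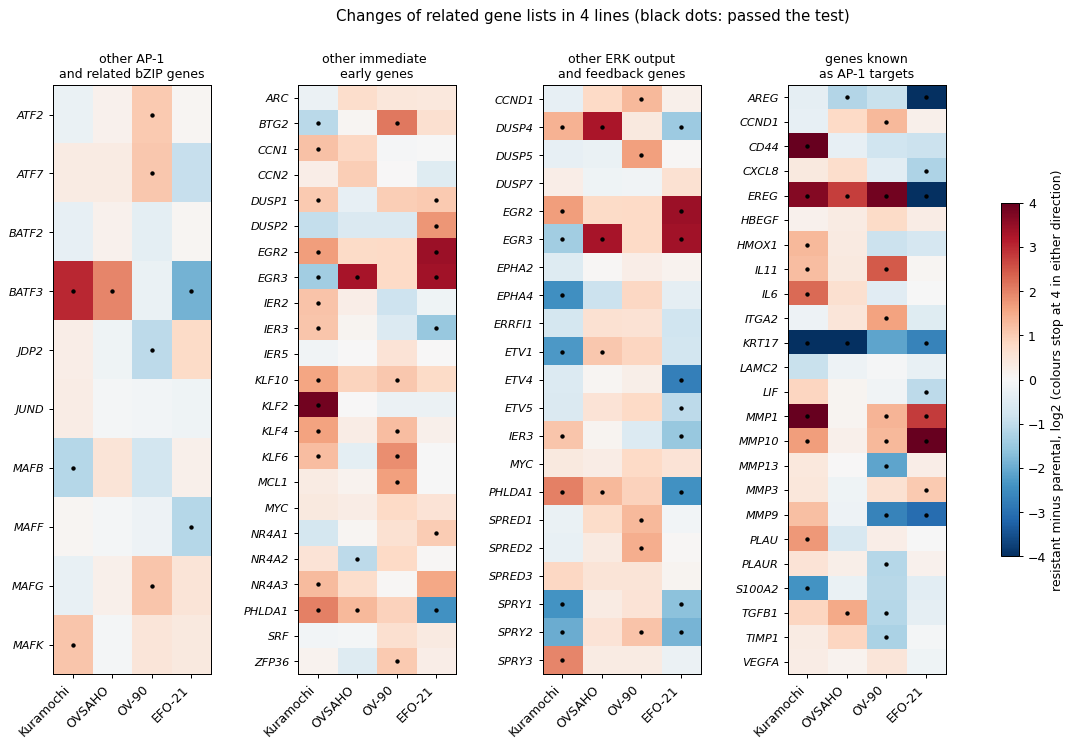
Resistant minus parental changes, on the log2 scale, of the genes of 4 related lists in the 4 lines, with red for higher, blue for lower and a black dot where the test was passed. Colours stop at 4 in either direction. The row of EREG is dark red in Kuramochi and OV-90 and dark blue in EFO-21, and KRT17 is blue in every line with dots in 3.

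Of 10 measured other AP-1 and related leucine zipper genes, 2 rose and 1 fell in Kuramochi, 1 rose in OVSAHO, 3 rose and 1 fell in OV-90, and 2 fell in EFO-21. BATF3, a partner of Jun proteins in immune cells, rose by 3.00 in Kuramochi (adjusted p = 0.00708) and by 1.94 in OVSAHO and fell in EFO-21 (-1.89). Its lowest parental Kuramochi library, at 1.28, was at the bottom, and its lowest resistant EFO-21 library, at 1.74, was near it. In OV-90 MAFG, ATF7 and ATF2 had changes of 1.10, 1.08 and 1.04 and JDP2, an inhibitory partner of JUN, had -1.04, and this count of 4 was 0 without any one resistant library.

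Among 24 genes known as AP-1 targets, 8 rose and 2 fell in Kuramochi (median change 0.50), 2 rose and 2 fell in OVSAHO (0.18), 6 rose and 5 fell in OV-90 (-0.28), and 3 rose and 6 fell in EFO-21 (-0.25). The adhesion receptor gene CD44 rose in Kuramochi from 4.35 to 8.45 (adjusted p = 1.09e-05). The collagenase gene MMP1 rose in 3 lines, by 4.77 in Kuramochi from a parental mean at the bottom, by 1.36 in OV-90 and by 2.81 in EFO-21. MMP10 also rose in 3, by 1.67 in Kuramochi, 1.30 in OV-90 and 4.37 in EFO-21, where it went from 7.18 to 11.56 (adjusted p = 6.81e-06). KRT17, a keratin, fell in 3 lines, with changes of -5.33 in Kuramochi, -4.0 in OVSAHO and -2.66 in EFO-21. Its resistant libraries came down to or near the bottom, from 1.84 to 2.52 in Kuramochi and from 1.55 to 2.32 in OVSAHO. EREG, the gene of the EGF receptor ligand epiregulin, was near 0 in parental Kuramochi (0.02) and OV-90 (0.20) and at 3.70 and 4.07 in the resistant forms. In OVSAHO its parental mean was 1.29, also at the bottom, with libraries from 0.02 to 2.07, and its resistant mean was 4.04. These 3 rises passed the test, but with parental means at the bottom they are not measured folds. In EFO-21 EREG fell from 13.66 to 5.11. AREG, a second ligand of that receptor, changed by -5.81 in EFO-21. In OV-90 the 11 calls of this list became 3 or 4 without any one resistant library.

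Immediate early genes respond to how cells are handled, so markers of heat shock and handling were read beside them. Of 11 such genes 2 rose in Kuramochi, BAG3 by 1.11 and HSPB1 by 1.06, and 0 passed in OVSAHO, OV-90 or EFO-21. Their summed level, on the log2 scale, was between 14.76 and 14.81 in parental and between 14.98 and 15.04 in resistant Kuramochi, and between 14.13 and 14.40 against 14.58 and 14.63 in OV-90. In OVSAHO it was 14.52 to 14.72 against 14.69 to 14.74, and in EFO-21 14.23 to 14.37 against 14.28 to 14.41, so that the groups overlapped in these 2 lines. A summed level, here and for the cell type markers below, follows mainly the genes with the highest values in a list. The part of handling in the changes of the 10 genes was not tested.

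The labelled cell type was read from 9 ovarian epithelial markers. Their summed level was 13.00 to 13.26 in parental and 12.05 to 12.11 in resistant Kuramochi, 12.57 to 12.63 against 11.57 to 11.66 in OVSAHO, 14.29 to 14.52 against 13.91 to 13.99 in OV-90, and 13.37 to 13.44 against 12.94 to 12.98 in EFO-21. In Kuramochi 5 of the 9 fell, among them KRT19 (-3.96) and EPCAM (-3.78), and in OVSAHO 4 fell, among them MUC16 (-4.59) and EPCAM (-3.01). In OV-90 0 passed, and in EFO-21 1 rose, MSLN by 2.10. MUC16 and MSLN were at the bottom in OV-90, WT1 in EFO-21 and MUC16 in resistant Kuramochi. Of 10 immune, endothelial and stromal markers 3 rose and 3 fell in Kuramochi, 2 rose and 4 fell in OVSAHO, 0 rose and 1 fell in OV-90, and 1 rose and 1 fell in EFO-21. Their summed level ranged from 7.55 to 11.06 over the libraries. It cannot be set against that of the epithelial list, since levels are not scaled to gene length. The T cell and leukocyte markers CD3E and PTPRC were at the bottom in 3 groups and 1 group. Elsewhere they were above it, with CD3E at 5.62 in parental and 4.88 in resistant OV-90 and PTPRC at 4.58 in parental EFO-21. Both fell in OVSAHO, PTPRC from 3.43 to 0.54 (change -2.88) and CD3E from 3.08 to 0.48 (change -2.6), to resistant levels at the bottom. The endothelial markers CDH5 and PECAM1 were at the bottom in 3 and 4 groups but high in EFO-21, at 9.11 and 8.48 in parental and 9.33 and 8.55 in resistant cells. CDH5 rose by 2.87 in Kuramochi to a mean of 7.62. In the same line VWF, also an endothelial marker, had a change of -2.0, and PECAM1 was at the bottom in both forms. PECAM1 fell in OV-90, with a change of -2.89. The stromal marker DCN changed by -2.52 in Kuramochi, to a resistant level at the bottom, and by 4.22 in OVSAHO. CD68, a lysosomal protein gene used as a macrophage marker, rose by 2.79 in Kuramochi and by 1.28 in EFO-21. It fell in OVSAHO, with a change of -1.0 from 7.23 to 6.23, and was above the bottom in every group. CD14, of the same list, went the other way from CD68 in EFO-21, with a change of -1.69 from 6.33 to 4.64. The part of these markers in the changes of the 10 genes was not tested.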

How the data were processed

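Total RNA of parental and prexasertib-resistant cultures had been sequenced as stranded, poly(A)-selected libraries, which were aligned by the authors to GRCh37/hg19. The deposited values are log2 expression levels, 1 per gene, that the authors derived from exon and junction reads by a robust linear model for 16448 genes, or as a mean of log2 exon values for 5210 genes (JUN and JUNB among them), and then quantile normalized. This forces 1 distribution on all libraries and would hide a shift shared by most genes. Read counts are not in the table, so depth is unknown and no counting interval was computed.

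Libraries were grouped by the line and form in their column names, which carry library numbers from 2 to 24 but no replicate number. No column belonged to other samples (0 columns). Symbols came from a RefSeq gene table (20745 of 21658 genes) and positions from GENCODE lifted to GRCh37.

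Each line was fitted alone with limma 3.58.1 in R 4.3.3 (lmFit, eBayes with a mean-variance trend, two-sided, Benjamini-Hochberg over 21658 genes), with no pseudocount and no filter. Passing needed an adjusted p under 0.05 plus a 2-fold change or more. The average over lines used the line as a block, and differences between lines and between parental lines came from 1 fit of 8 group means. An exact permutation test cannot go below p = 0.1 with 3 against 3 libraries or p = 0.2 with 2 against 3, so none was run. The lowest 10% of levels in a library, with an upper limit between 1.70 and 1.87 over the libraries, are called the bottom. The code was tested on simulated data.

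The 10 genes and the related lists were chosen with earlier results of these data known, so no test over a list was made. A gene of the list of AP-1 targets is not reported here, and the counts of that list leave it out. Named genes are the 10, the 2 most correlated genes of each, and from each related list at most 4 passing genes with the largest change per line plus those passing in 1 direction in at least 3 lines. EGR3 in Kuramochi, SPRY1 in EFO-21 and the genes set beside those of another line were chosen after seeing their values. The motifs were likewise revised after first matches were seen. Alternatives were 1 joint fit, no trend, a filter at the 25th percentile of gene means, recentring, thresholds of 1.5-fold and of no fold, and leaving out each library or line.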

Additional observations from a re-analysis of the deposited data

Results flagged for a closer look

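The following differences between lines passed the test of the difference itself, in a limma fit of 8 group means, and the pair with the widest gap is given for each gene. The resistant-minus-parental change in Kuramochi minus that in OV-90 was 4.82 for FOSL1 (adjusted p = 1.93e-11), 2.58 for ATF3 (adjusted p = 3.19e-08), -2.71 for DUSP6 (adjusted p = 1.99e-12), -2.01 for SPRY4 (adjusted p = 7.8e-05) and -1.19 for FOS (adjusted p = 0.000369), all on the log2 scale. The change in Kuramochi minus that in OVSAHO was -3.25 for EGR1 (adjusted p = 6.48e-10), 1.26 for FOSL2 (adjusted p = 7.71e-06) and 1.14 for JUN (adjusted p = 1.03e-08). The FOSB change in OV-90 minus that in EFO-21 was 2.03 (adjusted p = 0.000778). FOS differed between lines although it passed in no line alone.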

How the results depend on the processing

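No paired analysis was possible because the columns carry no replicate numbers. Over 50 results for single genes, alternatives left 715 values on their side of the threshold, weakened 18, strengthened 27 and reversed 0. With no fold threshold the genes passing were 7 in OVSAHO, 8 in OV-90 and 7 in EFO-21, and at 1.5-fold they were 6 in EFO-21. With 1 library left out they ranged from 4 to 5 in Kuramochi, 3 to 3 in OVSAHO, 2 to 5 in OV-90 and 2 to 3 in EFO-21. In OV-90 the count was 2 without any one of the resistant libraries 13, 14 and 15, when EGR1 and DUSP6 still passed. The average over lines had 1 to 2 (1 without parental OVSAHO library 7), and 1 without the OVSAHO line and 1 without the EFO-21 line. Without OV-90 it had 2, with FOSL1 (1.29, adjusted p = 0.0288) in place of EGR1. Differences between lines ranged from 25 to 29 and between parental lines from 32 to 35. The filter kept 16243 genes, all 10 members among them, and recentring shifted no single library by more than 0.076. Changes of the other alternatives (joint fit, no trend) kept every count within 1.5 times. Unknown depth and the 2 parental OV-90 libraries limit what could be seen.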
